A study of Mus musculus with 12 samples.

Results

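The adhesion genes Itga3, Itga5, Bcam and Jup were followed in bone marrow mesenchymal stem cells (BMSCs) of wild-type mice that were cultured with or without α-asarone. They were chosen by symbol, with earlier results of these data known, and are 4 of the 658 genes in the deposited table. The cells are the adherent stromal cells of marrow, which can form bone, fat and cartilage. All 12 libraries came from cells in osteogenic medium with 15% fetal bovine serum. This medium held 50 µM ascorbic acid, 10 mM β-glycerophosphate and 100 nM of the glucocorticoid dexamethasone. Of the 12 libraries, 6 received α-asarone (spelled α-Asaronel in the sample labels), a plant phenylpropanoid, and the other 6 were controls without it. The sources used here give neither its dose nor its timing, and they do not say whether replicates came from separate animals or cultures. The p-values therefore reflect spread among libraries, which may be technical.

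Integrins are pairs of an α and a β chain that span the cell membrane and tie the matrix outside to actin inside. In stromal cells the α5 chain, encoded by Itga5, makes the main fibronectin receptor, and the α3 chain, encoded by Itga3, makes a laminin receptor, both with the β1 chain. Bcam encodes an immunoglobulin-family membrane protein that also binds laminin. Jup encodes plakoglobin, a relative of β-catenin that sits in desmosomes and adherens junctions and links cadherins to the cytoskeleton.

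The coding ends of both integrin chains are shown because the deposited values bear on which Itga3 transcript was counted. In GENCODE M21 (GRCm38) Itga3 has 3 long coding transcripts, and exon 25 of 26 of Itga3-201 is absent from Itga3-203. Splicing of this exon is what separates the known α3A and α3B tails. Its 108 coding bases lie at chr11:95046483-95046590, minus strand, and the matching 81 bases of Itga5 lie in exon 30 of Itga5-201 at chr15:103345272-103345352, minus strand. Capitals mark the 15 bases that encode the membrane-proximal motif shared by integrin α chains.
Itga3-201 exon 25: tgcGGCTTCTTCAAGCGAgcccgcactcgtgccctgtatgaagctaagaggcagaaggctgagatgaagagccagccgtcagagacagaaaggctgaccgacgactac
Itga5-201 exon 30: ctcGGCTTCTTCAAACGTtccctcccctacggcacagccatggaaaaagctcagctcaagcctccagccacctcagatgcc
The marked bases are identical at 13 of 15 positions. A match to the motif was found once in Itga3-201, Itga3-202 and Itga5-201, and none was found in Itga3-203. No protein sequence was examined, so whether the protein of Itga3-203 carries the motif is not known here.

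The genes lie on the minus strand of 3 chromosomes of GRCm38. Itga3 (ENSMUSG00000001507) spans 95044474 to 95076801 on chromosome 11, and Jup (ENSMUSG00000001552) spans 100368958 to 100397763 on the same chromosome. Itga5 (ENSMUSG00000000555) spans 103344286 to 103366763 on chromosome 15. Bcam (ENSMUSG00000002980) spans 19756131 to 19771016 on chromosome 7 and overlaps Gm45114 on its own strand and Gm26600 on the other, and since it is not known whether the libraries kept strand, reads of these cannot be told apart. Itga5 contains a microRNA gene, Mir6963, and no annotated gene overlaps Itga3 or Jup. The counts of all 4 genes were whole numbers in every library.

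Itga5 was by far the most abundant of the 4. Averaged over 12 libraries, its level was 89.8 TPM (a transcript level corrected for length and scaled to a common total in each library), against 16.0 TPM for Jup, 8.71 TPM for Itga3 and 4.06 TPM for Bcam. Among the 512 genes tested, those with at least 1 TPM in at least 6 libraries, they ranked 98, 357, 416 and 471 in that order. All 4 passed this filter. The order was the same in every library, and no 2 ranges met. The nearest neighbours were Itga3, at 6.56 TPM or more, and Bcam, at 5.07 TPM or less.

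With α-asarone, reads of Itga3 and Jup fell, and those of Itga5 and Bcam did not pass the test. By edgeR's quasi-likelihood test with Benjamini-Hochberg adjustment over all 512 genes, 2 of the 4 were called, both lower. Over all tested genes 30.3% were called, 17.4% lower and 12.9% higher. The median log2 fold change was −0.27 over the 4 genes and 0.00 over all tested genes. The fall of Jup held per transcript length as well, whereas that of Itga3 did not pass there. In bulk RNA, fewer cells of a type and less RNA per cell cannot be told apart.

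**Figure D1:**
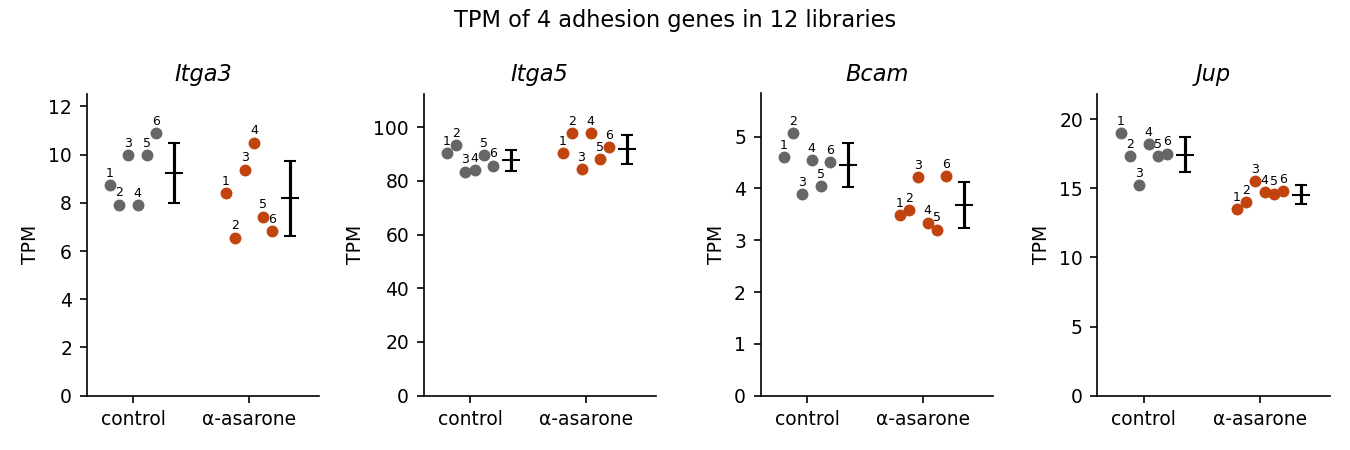
TPM of Itga3, Itga5, Bcam and Jup (vertical axes) in 6 control and 6 α-asarone libraries, with replicate numbers beside the points and mean ± SD as bars. For Jup, 5 of 6 α-asarone libraries lie below every control, while 4 of 6 do so for Bcam, 3 of 6 for Itga3 and none for Itga5.

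Jup, the junction gene, had the one change called under every alternative. Control libraries had a lowest level of 15.2, a median of 17.4 and a highest level of 19.0 TPM, and α-asarone libraries had 13.5, 14.6 and 15.5 TPM. Thus 5 of 6 α-asarone libraries lay below every control, and the exception, replicate 3, overlapped with control replicate 3 alone. Means were 17.4 ± 1.28 TPM (SD, n = 6) in controls and 14.5 ± 0.696 TPM (SD, n = 6) with α-asarone. In depth-scaled counts, the estimated counts divided by each library's relative depth, the groups did not overlap, at 412 to 507 in controls and 342 to 411 with α-asarone. On this scale the groups of 13.7% of tested genes did not overlap, and 8.4% of tested genes were lower in this way. EdgeR put the change at −0.28 ± 0.06 on the log2 scale (SE, adjusted p = 0.00034), or −17.7%, and its 95% confidence limits were −24.0% and −10.8%. Jup was called under all 23 alternatives, with log2 fold changes from −0.31 to −0.20.

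Few other genes of the junctions to which plakoglobin belongs could be read. Of 36 listed desmosome and adherens junction genes, 33 were not analysed here, and of the 3 in the table Jup was the 1 tested. Cdh1, the gene of E-cadherin, reached at most 0.197 TPM and Cdh4, the gene of R-cadherin, at most 0.143 TPM in any library. Dsg4, a desmosomal cadherin gene outside that list, was listed at 0 in every library. Cdh1 was also the only gene of the epithelial list in the table. Plakoglobin RNA was thus present in libraries in which these 3 cadherin genes were at or near 0. The level of other cadherin genes is not known here. Of 5 tested genes that the deposited annotation places in the adherens junction, Jup fell and Tspan33, a tetraspanin gene, rose from 2.67 ± 0.523 to 4.55 ± 0.804 TPM (SD, n = 6), a log2 difference of 0.76 ± 0.14 (SE, edgeR adjusted p = 0.00015). Cyth2, Keap1 and Efnb2 did not pass, at 58.9 ± 3.18, 35.8 ± 2.46 and 8.48 ± 0.415 TPM in controls. Over all tested genes 12.9% rose and 17.4% fell.

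Itga3, the laminin-receptor integrin chain, had fewer reads with α-asarone. Depth-scaled counts had a lowest value of 316, a median of 368 and a highest value of 419.6 in controls, and of 226, 279.7 and 297 with α-asarone. Every α-asarone library lay below every control, as was so for 8.4% of tested genes on this scale. In either direction the groups of 13.7% did not overlap. This amounted to −0.41 ± 0.07 on the log2 scale (SE, edgeR adjusted p = 3.4e-05), or −24.6%, with 95% confidence limits of −31.7% and −16.8%. It ranked 32 by absolute change among the 512 genes. It was called in all 19 alternatives that count reads without regard to length, with log2 fold changes from −0.45 to −0.36.

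In TPM, the same gene showed no call. Its level was 9.24 ± 1.24 TPM (SD, n = 6) in controls and 8.18 ± 1.55 TPM (SD, n = 6) with α-asarone, with ranges of 7.89 to 10.9 and 6.56 to 10.5 TPM. Replicates 2, 5 and 6 with α-asarone lay below every control, at 6.56, 7.42 and 6.82 TPM, and the other 3 lay among the controls. Limma on log2(TPM + 1), a scale that understates changes of low genes, gave a log2 fold change of −0.16 ± 0.11 (SE, limma adjusted p = 0.27), where 22.9% of genes were called, 13.9% lower and 8.98% higher. The smaller added constant of log2(TPM + 0.1) changed this little, with −0.18 ± 0.12 (SE, limma adjusted p = 0.27). EdgeR with an offset for transcript length, an alternative added after the values were seen, gave −0.20 ± 0.11 (SE, edgeR adjusted p = 0.20), where 25.4% were called, 14.5% lower and 10.9% higher.

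Count and TPM of Itga3 were not in a fixed proportion. Dividing a gene's count by its TPM and by the library's scale gives the mean length of the transcripts to which its reads were assigned, weighted by TPM. For 12 of 13 genes with 1 annotated transcript this length came within 0.5% of the annotated one. It was 4382 bases for Itga5 in every library, the length of Itga5-201, and 2429 bases for Bcam in every library, the length of Bcam-201. For these genes reads and TPM therefore give the same comparison.

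For Itga3 the implied length ranged from 3246 to 4861 bases. Its coefficient of variation over the 12 libraries was 14.3%, the largest of 383 genes with at least 200 counts in every library. In 4 libraries, α-asarone replicates 2 and 6 and control replicates 1 and 2, it was 4861 bases, which is the length of Itga3-201, the longest annotated form, which carries exon 25. Replicates 2 and 6 with α-asarone were also the libraries with the lowest TPM. Controls 3 to 6 had 4361, 4608, 4235 and 4424 bases. The other α-asarone libraries, replicates 1, 3, 4 and 5, had 3862, 3412, 3246 and 3516 bases, all below every control. Means were 4558 ± 264 bases (SD, n = 6) in controls and 3960 ± 727 bases (SD, n = 6) with α-asarone. The groups overlapped through the libraries at 4861 bases, and an exact 2-sided permutation test did not pass (p = 0.0823, or 0.165 adjusted over the 2 genes tested, Itga3 and Jup).

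Lengths below 4636 bases cannot come from the 3 long coding forms of this annotation, of 4861, 4697 and 4636 bases, and call for some reads on its shorter ones. The authors' own annotation is not known. The shorter forms are Itga3-204 and Itga3-205, with retained introns and 722 and 826 bases, and Itga3-206, a short coding model of 549 bases. If Itga3-201 were mixed with Itga3-204 alone, the short form would take up to 39.0% of the gene's TPM in α-asarone replicate 4, from 22.6 of its 261 counts. The longest form would then have 7.41 to 9.77 TPM in controls and 5.01 to 6.82 TPM with α-asarone, with means of 8.51 ± 0.807 (SD, n = 6) and 6.21 ± 0.636 TPM (SD, n = 6). These ranges nearly restate the depth-scaled counts, since few counts are taken off and the rest is divided by 1 length, so that they do not overlap is no further evidence. In TPM the groups of 14.3% of tested genes did not overlap, and 8.4% were lower in this way. The division of reads between forms is inferred from gene totals here, and it was not tested.

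**Figure D2:**
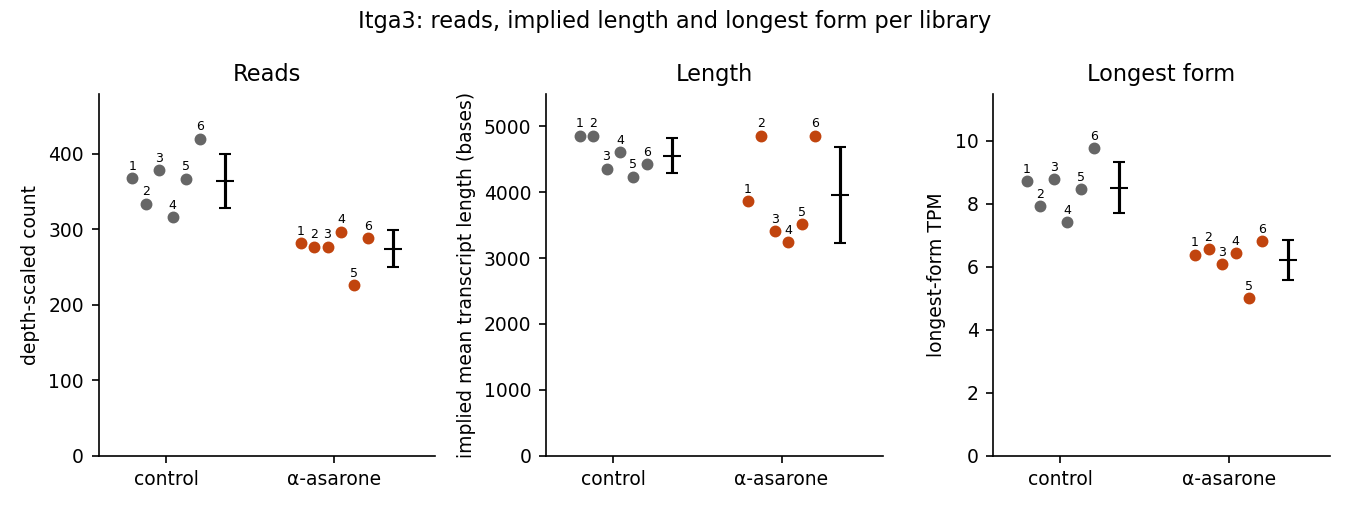
Itga3 in each library, as depth-scaled counts (left), the mean transcript length in bases implied by count and TPM (middle) and the TPM of Itga3-201 if it were mixed with Itga3-204 alone (right), with replicate numbers and mean ± SD as bars. Control and α-asarone libraries separate on the left (316 to 419.6 against 226 to 297) and, as nearly the same values per length, on the right, and 4 libraries share the 4861-base ceiling in the middle. In depth-scaled counts the groups of 13.7% of tested genes did not overlap, and 8.4% were lower in this way.

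Jup showed a smaller spread of this kind, from 2922 to 3205 bases, the upper end being the length of Jup-201. The implied lengths were 3103 ± 86 bases (SD, n = 6) in controls and 3066 ± 93 bases (SD, n = 6) with α-asarone and did not separate the groups (exact 2-sided permutation p = 0.485, also 0.485 adjusted over the 2 genes). With the length offset the log2 fold change of Jup was −0.26 ± 0.06 (SE, edgeR adjusted p = 0.0022).

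Itga5, the fibronectin-receptor chain, had a small positive estimate that did not pass. Its levels in controls had a lowest value of 83.5, a median of 87.6 and a highest value of 93.3 TPM, and with α-asarone 84.3, 91.6 and 97.9 TPM. Replicates 2 and 4 of the α-asarone group lay above every control and the other libraries overlapped. EdgeR estimated 0.07 ± 0.03 on the log2 scale (SE, adjusted p = 0.083), or 5.06%, with 95% confidence limits of 0.535% and 9.79%. It rested on a mean of 3433 counts per library. The gene passed when α-asarone replicate 3 or control replicate 2 was left out (edgeR adjusted p = 0.017 and 0.045). It also passed with libraries scaled by table totals (log2 fold change 0.11, edgeR adjusted p = 0.0095).

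Bcam, the second laminin receptor, was low and its change did not pass. Controls had a lowest level of 3.89, a median of 4.52 and a highest level of 5.07 TPM, and α-asarone libraries had 3.20, 3.53 and 4.24 TPM. Here 4 of 6 α-asarone libraries lay below every control, and replicates 3 and 6 overlapped. Its estimate was −0.27 ± 0.11 on the log2 scale (SE, edgeR adjusted p = 0.063), or −17.0%, and the 95% confidence limits were −28.9% and −3.04%. The estimate is as large as that of Jup, but its SE is wider, at a mean of 85.7 counts against 429. Without α-asarone replicate 3 or 6 the gene passed (edgeR adjusted p = 0.044 and 0.041).

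**Figure D3:**
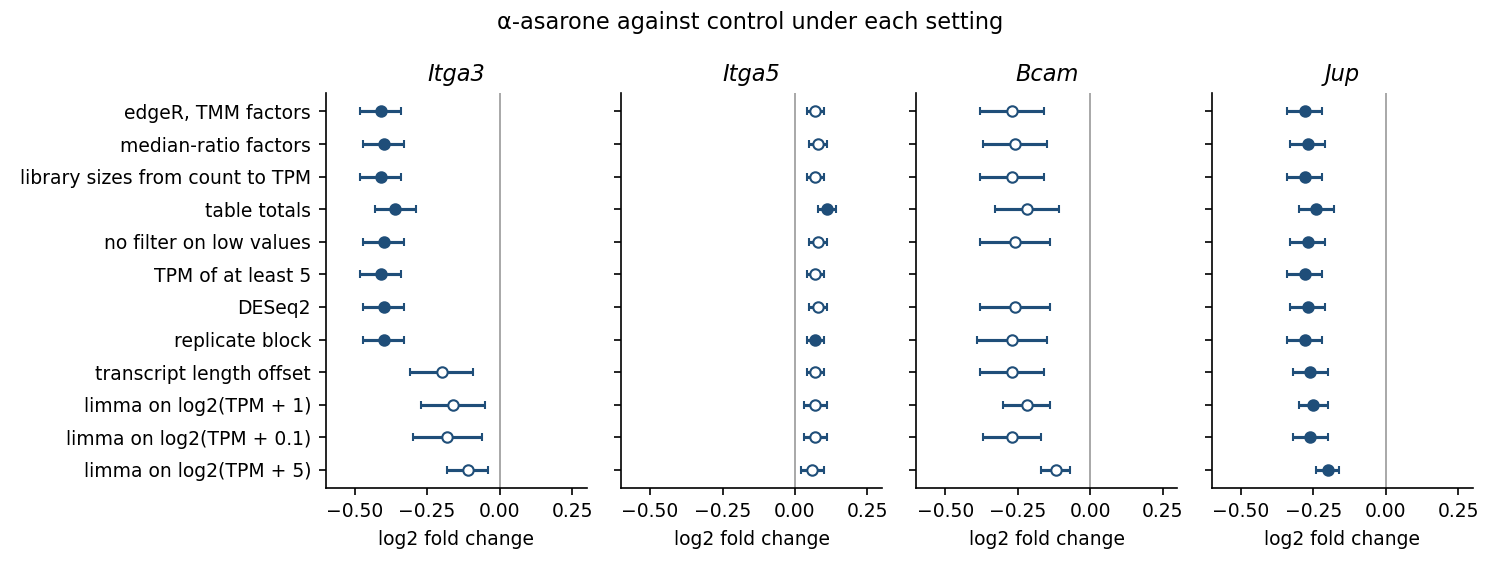
Log2 fold change of each gene (horizontal axes, α-asarone against control) under the main fit and 11 alternatives (rows), with SE as bars. Filled points have an adjusted p under 0.05, and Jup is filled in every row. Itga3 turns open in the 4 rows that correct for length, from −0.41 to between −0.20 and −0.11. The −0.11 is on log2(TPM + 5), which also shrinks changes of low genes (Bcam −0.12 there against −0.27 in the main fit). Bcam has no point where at least 5 TPM was required.

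Whether 2 of the genes changed by different amounts was tested on their TPM ratio within each library, which does not depend on library scaling. All 6 pairs were compared by exact 2-sided permutation of the libraries. The ratio of Itga5 to Jup rose from 5.05 ± 0.352 to 6.35 ± 0.553 (SD, n = 6 per group, exact p = 0.00433, adjusted over 6 pairs 0.026). The groups met at their edges, with 4.61 to 5.49 in controls and 5.44 to 6.99 with α-asarone. In estimated counts they did not overlap, at 6.78 to 7.71 in controls and 7.81 to 10.1 with α-asarone (exact p = 0.00216, adjusted 0.00649). The TPM ratio of Itga5 to Bcam rose from 19.9 ± 1.59 to 25.3 ± 3.6 (SD, n = 6 per group, exact p = 0.0108, adjusted 0.0325, or 0.0216 in estimated counts). In the main test on TPM, Itga5 thus moved apart from both Jup and Bcam, and both ratios rest on the same Itga5 values. For each pair 8 of the 12 fits that left out 1 library lost the call, those without α-asarone replicate 1, 2, 4 or 5 or control replicate 1, 2, 4 or 6, with adjusted p = 0.052 for Jup and 0.065 for Bcam and ratios that stayed higher.

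The difference between the 2 integrin chains passed in reads and did not pass in TPM. The TPM ratio of Itga3 to Itga5 was 0.106 ± 0.0164 in controls and 0.0894 ± 0.0179 with α-asarone (SD, n = 6 per group, exact p = 0.115, adjusted 0.229). In estimated counts it fell from 0.109 ± 0.0127 to 0.0786 ± 0.00672, with no overlap between the groups (SD, n = 6 per group, exact p = 0.00216, the smallest that this design gives, adjusted 0.00649). Among Itga3, Bcam and Jup no pair passed the test of a difference in TPM. The ratio of Bcam to Jup was 0.255 ± 0.0204 in controls and 0.253 ± 0.0257 with α-asarone (exact p = 0.866), and those of Itga3 to Bcam and to Jup had exact p = 0.643 and 0.591 (both 0.771 adjusted). That these p-values miss the threshold does not show that the genes changed alike.

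Genes that varied most like each member were sought within groups, as the correlation of deviations of log2(TPM + 1) from the group mean over the 12 libraries. These are descriptions, since the pairs were picked as the highest of 454 or 455 genes with at least 5 TPM and share library and depth. Itga5 went most with Lamb1, the laminin β1 gene (Pearson r = 0.82, Spearman rho = 0.81, and r = 0.68 without the 2 libraries farthest from the median), and with Ap2a2, an endocytic adaptor gene (r = 0.79, rho = 0.74). Itga3 went most with Rab34 (r = 0.76, rho = 0.74) and the myosin gene Myo18a (r = 0.74, rho = 0.76). For Bcam they were Timmdc1 (r = 0.70, rho = 0.62) and Ddx23 (r = 0.68, rho = 0.59), and for Jup Gm2a (r = 0.68, rho = 0.51) and Smarcb1 (r = 0.66, rho = 0.65). The relation of Jup to Gm2a rested on 2 libraries, since r was 0.29 without them. Among the members, Jup and Bcam had r = 0.54 and rho = 0.58, and Itga3 and Itga5 had r = −0.22. The TPM of Itga3 also carries the spread of its implied length, so all its correlations may follow the assignment of reads to forms. This was not tested.

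The β1 chain, with which α3 and α5 pair, was not analysed here. The table held 2 tested β chains, both of leukocytes and partners of other α chains, and both fell. They were Itgb2 from 293 ± 5.91 to 273 ± 7.29 TPM (SD, n = 6; log2 fold change −0.10 ± 0.02, edgeR adjusted p = 5.3e-04) and Itgb7 from 1.44 ± 0.431 to 1.22 ± 0.805 TPM (SD, n = 6; log2 fold change −0.59 ± 0.22, edgeR adjusted p = 0.036). The call of Itgb7 was lost in 12 alternatives, DESeq2 and all limma fits among them, and that of Itgb2 in 1, scaling by table totals. Of 37 listed integrin ligand genes 3 were tested, of which 2 rose and none fell, where 12.9% of all tested genes rose and 17.4% fell. The one that did not pass, Icam2, encodes a ligand of leukocyte integrins. Lamb1 averaged 98.1 ± 4.1 TPM (SD, n = 6) against 90.7 ± 1.77 TPM in controls, a log2 difference of 0.12 ± 0.02 (SE). Egfl6, which encodes an integrin-binding secreted protein, averaged 54.8 ± 1.92 TPM against 21.9 ± 1.85 TPM, a log2 difference of 1.33 ± 0.05. Rac1, the small GTPase that integrins activate, did not pass at 399 ± 7.22 TPM against 414 ± 8.84 TPM in controls.

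The deposited annotation gave wider lists, of which 11 terms were taken up with their values known, so their counts are descriptions. They share genes, Itga3 among them in most. Over all tested genes 30.3% were called, 12.9% higher and 17.4% lower. Of 19 tested genes annotated to cell adhesion, all 4 members among them, 5 rose, 4 fell and 10 did not pass, with a median log2 fold change of −0.05 against 0.00 over all tested genes. The risers were Egfl6, the collagen genes Col18a1 (0.52 ± 0.04) and Col6a1 (0.18 ± 0.02), the scavenger receptor gene Cd36 (0.24 ± 0.05) and Lamb1. The fallers were Itga3, Jup, Itgb2 and Itgb7. Of 7 tested cell-cell adhesion genes 5 fell, and none rose, with a median of −0.26. They were Itga3, Jup, Itgb2, the scaffold gene Dlg3 (−0.16 ± 0.05) and Sox9 (−0.26 ± 0.08), which encodes a transcription factor. Of 8 tested focal adhesion genes 4 fell and none rose, with a median of −0.09, and the actin-remodelling gene Flii (−0.14 ± 0.03) was one. Other terms went both ways. Of 7 tested genes of ECM-receptor interaction 3 rose and 3 fell, of 9 of integrin binding 2 rose and 3 fell, and of 13 of the focal adhesion pathway 2 rose and 4 fell. Of 7 tested genes of cell-matrix adhesion and 4 of the integrin complex 3 fell in each and none rose. Laminin binding and cadherin binding had 2 tested genes each, with 1 lower in each, Itga3 and Jup.

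**Figure D4:**
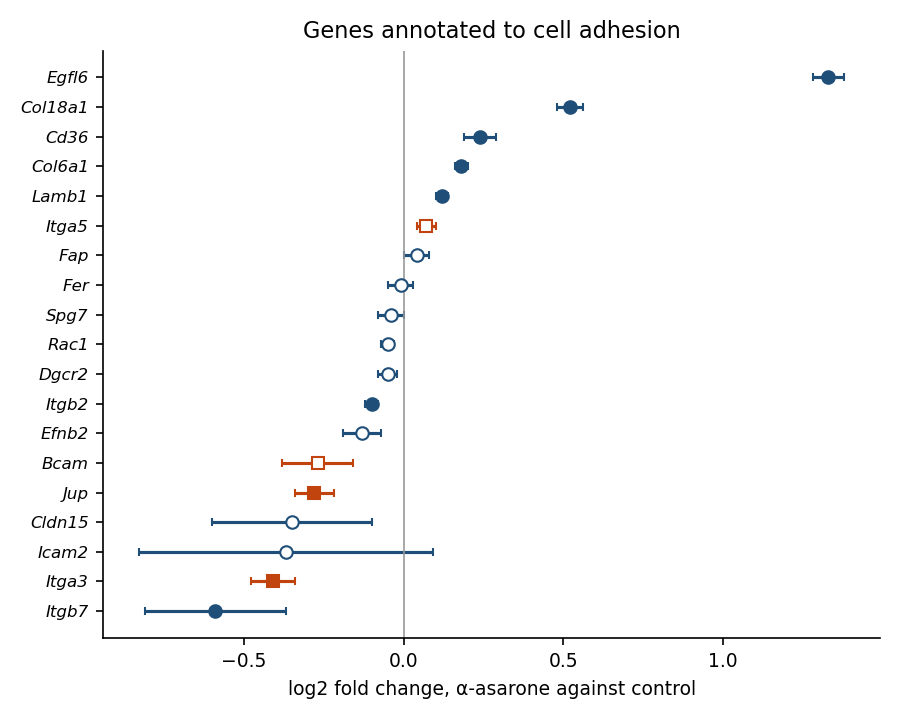
Log2 fold change (α-asarone against control, edgeR) of the 19 tested genes annotated to cell adhesion, with SE as bars. Squares are Itga3, Itga5, Bcam and Jup, filled symbols have an adjusted p under 0.05, and the 5 filled genes on the right are higher while the 4 on the left are lower.

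Leukocyte genes were expressed beside the stromal ones. Of 27 leukocyte and macrophage genes 8 were in the table, and their summed level was 901 to 995 TPM in controls and 992 to 1162 TPM with α-asarone, with Cd3g and Vpreb3 listed at 0. Of 5 tested, 2 rose (Cfp from 332 ± 23.1 to 469 ± 45.6 TPM and Spi1 from 143 ± 5.13 to 163 ± 8.88 TPM), and 2 fell (Itgb2 and Acp5, the latter from 66.6 ± 7.57 to 29.8 ± 5.07 TPM). Among all tested genes 12.9% rose and 17.4% fell. None of the 17 listed stromal surface markers was analysed here, so the stromal label could be checked only against bone and matrix genes such as Col1a1, the type I collagen gene, which fell from 1852 ± 141 TPM (SD, n = 6) to 1304 ± 78.8 TPM (−0.50 ± 0.04 on the log2 scale, edgeR adjusted p = 1.8e-11). Among the 4 osteoblast and osteocyte genes that could be read, Col1a1 alone was abundant. Dlx3 averaged 1.65 ± 0.248 TPM (SD, n = 6) without α-asarone and 1.97 ± 0.503 TPM under it. Its log2 fold change of 0.27 ± 0.17 (SE, edgeR adjusted p = 0.25) did not pass. Fgf23 reached at most 0.319 TPM, and Sost was listed at 0 in every library. The check of the stromal label thus rests mainly on Col1a1. Cnn1, a contractile gene, fell from 26.1 ± 3.50 to 8.14 ± 1.13 TPM. The endothelial genes Vwf and Esam reached at most 1.33 and 1.16 TPM. Genes of the erythroid and megakaryocyte lists were not analysed here. The part of these cell types in the falls of Itga3 and Jup was not tested.

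The promoter of Jup, the gene that fell on every scale, is shown from RefSeq (GRCm38.p6) as the 250 bases before its annotated start, at chr11:100397791-100398040 on the minus strand. Capitals mark each match to GGGCGG, the GC box, on either strand.
Jup: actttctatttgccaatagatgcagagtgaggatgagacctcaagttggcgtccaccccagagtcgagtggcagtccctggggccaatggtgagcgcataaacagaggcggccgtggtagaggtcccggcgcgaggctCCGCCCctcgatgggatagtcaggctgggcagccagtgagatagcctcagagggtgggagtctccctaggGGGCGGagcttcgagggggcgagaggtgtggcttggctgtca
The window held 2 matches, with a GC content of 62.0% against a median of 52.4% over 32851 promoters. Counting also the first 50 transcribed bases, GGGCGG was found at least once in all 5 promoters of the 4 genes, of which Itga3 has 2, and in 35.7% of all promoters. The 250 bases before the other starts had GC contents of 70.0% for Bcam, 67.6% and 50.8% for Itga3 and 55.6% for Itga5. The share among promoters of like GC content was not examined. The nuclear receptor half-site AGGTCA (16.3% of all promoters), the TEAD motif GGAATG (14.7%), the E-box CACGTG (7.15%) and the TATA box TATAAA (13.6%), also searched on both strands, had no match in these 5 windows. The AP-1 motif TGANTCA (7.81%) had 1 match, in the downstream promoter of Itga3. A match is only a run of letters, and its absence says nothing of a factor.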

How the data were processed

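Bulk poly(A) RNA was sequenced from 12 libraries, 6 per group. The authors deposited TPM values and estimated counts per gene, per the file headers. The submitters' processing notes name GRCm38 and mm10. The sources used here name no aligner or quantifier. The table held 658 genes with 5.36% to 5.67% of each library's TPM, so the totals of 843595 to 1224256 estimated counts are not library depths. Precision for each gene follows its own counts.

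Estimated counts were rounded and tested with edgeR 4.0.16 (glmQLFit, glmQLFTest, TMM factors, R 4.3.3) over genes with at least 1 TPM in at least 6 libraries. Genes were called where the p-value, adjusted after Benjamini and Hochberg, was below 0.05. A positive log2 value means higher with α-asarone. Limma 3.58.1, DESeq2 1.42.0, other scalings and filters, the replicate block and each library left out were alternatives. On simulated counts over 512 genes for this comparison the test recovered 60% of 1.1-fold, 90% of 1.25-fold and 98% of 1.5-fold changes. Within groups, all 30 pairs of libraries differed by more than sampling noise (chi-square per degree of freedom 2.27 to 11.9).

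Named genes are the members, up to 6 called genes per gene list (else the 2 highest in TPM) and the 2 genes most like each member. Sox9, Dlg3, Flii, Il16, Aif1l, Dsg4, Cd36, Col6a1, Col18a1, Cdh4, Cd3g, Vpreb3, Tspan33, Cyth2, Keap1, Efnb2, Dlx3, Sost and Fgf23 fall outside that rule and were picked with their values known, as were 11 deposited annotation terms. Members, lists and tests were chosen with earlier results of these data known. Transcript lengths came from GENCODE M21 and promoters from RefSeq.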

Additional observations from a re-analysis of the deposited data

Results flagged for a closer look

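In 20 groups of 6 values, the highest or lowest library was compared with its nearest neighbour by Dixon's critical value, which chance passes in about 1 of 20. One was set apart. The depth-scaled count of Itga3 was 226 in α-asarone replicate 5, with 277 to 297 in the other 5 libraries of the group. Without that library the log2 fold change of Itga3 was −0.36 (edgeR adjusted p = 0.00011).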

How the results depend on the processing

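The number of genes changed was 155, and 116 to 189 under 23 alternatives (138 to 152 with 1 library left out, 168 with the replicate block, and 127 higher and 62 lower by table totals against 66 and 89). Jup kept its call in all 23. Itga3 lost its call on scales per length, which by construction divide reads by the implied length. Limma on log2(TPM + 1), log2(TPM + 0.1) and log2(TPM + 5) gave −0.16, −0.18 and −0.11 (adjusted p = 0.27, 0.27 and 0.28). The scale log2(TPM + 5) also shrinks changes of low genes, with Bcam at −0.12 there against −0.27 in the main fit. The length offset, an alternative added after seeing the data, gave −0.20 for Itga3 (edgeR adjusted p = 0.20). Itga5 gained a call with table totals (0.11, adjusted p = 0.0095) and with the replicate block (0.07, adjusted p = 0.042), and ranged from 0.05 to 0.09 with 1 library left out. Bcam ranged from −0.31 to −0.24 with 1 library left out. The ratio of Itga3 to Itga5 passed in estimated counts (−0.47, adjusted p = 0.0065). With the replicate block, a sign-flip test over 6 pairs, Itga5 to Bcam (0.34) and Itga5 to Jup (0.33) had the same size and did not pass (adjusted p = 0.19 each). This test says little, since its smallest p is 0.0312, or 0.0938 adjusted with both ratios at it. With 1 library left out these log2 ratios were 0.30 to 0.41 and 0.30 to 0.37. Why the other calls moved was not tested. Same-numbered libraries correlated at −0.003 to 0.128, and the best partner bore the same number for 2 of 6, so the numbers were not taken to pair the samples. Over 19 other named genes 409 of 429 alternative values kept the call or its absence, 19 lost a call, 12 of them for Itgb7, and 1 gained one. Bcam rests on a mean of 85.7 counts.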
